A study of Homo sapiens with 8 samples.

Results

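The set described here was 10 ERK feedback genes, transcripts that are made when the kinase ERK is active and most of whose proteins restrain it. Members were taken by gene symbol from the deposited expression table: DUSP1, DUSP4, DUSP5, DUSP6, DUSP7, SPRY2, SPRY4, SPRED1, PHLDA1 and ETV5. They were chosen with earlier results of these data known. All 10 of 10 were among the 21059 genes of the table. RNA sequencing was done on a single established cell line, MDA-MB-157, from a human breast cancer that is labelled ER negative. For 48 hours 4 samples received 5 mM glucose (low glucose) and 4 samples received 25 mM (high glucose), the second a model of hyperglycemia, in both cases without serum and after conditioning at low glucose, per the study's methods. The comparison asks which transcripts differ between these levels. An osmotic control was not analysed here, and no batch is named in the labels. The replicates are not stated to come from separate cultures, so p-values measure the spread between these samples, which may be technical.

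ERK is the last kinase of the RAS-RAF-MEK-ERK cascade, which carries signals from growth factor receptors to the nucleus. Active ERK switches on genes whose products turn the cascade off again. The dual-specificity phosphatases (DUSP, also called MAP kinase phosphatases) remove the activating phosphates from ERK and related kinases, and the Sprouty (SPRY) and SPRED proteins act higher up, on receptors, RAS and RAF. Since their transcripts follow ERK activity within a short time, they are often read as a gauge of it. ETV5 is an ERK-induced transcription factor of the ETS family and PHLDA1 is an ERK-induced protein that also answers to other stress signals.

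Promoter sequences are shown for the member with the most kinds of motif among those searched (DUSP1), for the classic ERK gauge (DUSP6) and for PHLDA1, the 1 member that did not pass the test of the glucose comparison. They are the 250 bases before the annotated start of each gene, 5′ to 3′, from RefSeq on GRCh38.p14, all on the minus strand: chr5:172771196-172771445 for DUSP1, chr12:89352502-89352751 for DUSP6 and chr12:76031777-76032026 for PHLDA1. Capitals mark the motifs that were searched and found.
DUSP1: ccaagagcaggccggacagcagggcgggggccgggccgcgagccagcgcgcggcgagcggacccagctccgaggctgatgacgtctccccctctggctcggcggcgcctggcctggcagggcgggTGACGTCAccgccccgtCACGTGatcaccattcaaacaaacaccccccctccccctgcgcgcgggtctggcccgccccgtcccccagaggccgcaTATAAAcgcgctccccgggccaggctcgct
DUSP6: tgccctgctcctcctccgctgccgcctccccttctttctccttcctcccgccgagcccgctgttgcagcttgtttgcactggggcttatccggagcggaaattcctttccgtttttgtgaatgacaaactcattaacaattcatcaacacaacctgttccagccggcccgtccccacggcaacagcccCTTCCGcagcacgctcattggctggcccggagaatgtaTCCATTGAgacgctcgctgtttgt
PHLDA1: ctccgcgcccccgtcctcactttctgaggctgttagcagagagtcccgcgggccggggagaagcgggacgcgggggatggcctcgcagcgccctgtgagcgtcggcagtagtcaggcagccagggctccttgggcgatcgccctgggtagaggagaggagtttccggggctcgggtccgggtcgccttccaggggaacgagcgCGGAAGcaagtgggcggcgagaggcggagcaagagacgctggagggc

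In DUSP1 the capitals are, in order, a cAMP response element (CRE, TGACGTCA), an E box (CACGTG) and a TATA box (TATAAA). In DUSP6 they are the core of an ETS site (CGGAAG, here on the other strand) and an octamer bound by the repressor Capicua (TCAATGGA, on the other strand). Capicua is known to silence PEA3-type ETS genes, Sprouty and DUSP genes until ERK removes it. PHLDA1 held 1 ETS core of these letters (CGGAAG). Only these letters were searched for ETS sites, so other forms of the core are left in lower case. Both strands were searched, and the motifs found here did not overlap one another. Among 35116 RefSeq windows of the same 250 bases, 1.65% held the CRE, 16.5% the ETS core, 6.34% the E box, 10.7% the TATA box and 3.18% at least 1 of the Capicua octamers TGAATGAA, TGAATGGA, TCAATGAA and TCAATGGA. The AP-1 site (TGANTCA, in 6.57% of windows) and the CArG box bound by serum response factor (in 1.16%) were found in 0 of the 9 member windows, which belong to 7 members, with 3 windows for SPRY2. Apart from the sites shown, these motifs were in no member window, which says only that these letters are not in these 250 bases. RefSeq windows for DUSP4, DUSP5 and ETV5 were not analysed here.

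Of the 10 members, 9 rose at high glucose and 0 fell at an adjusted p under 0.05 (limma, 2-sided, with Benjamini-Hochberg adjustment for 21059 genes). PHLDA1 was the member that did not pass. Over all genes tested, 22.0% rose and 24.8% fell, 46.8% in either direction. In 7 members the rise was at least 1 on the log2 scale, where 2.32% of all genes rose by as much. The 4 high glucose libraries lay above all 4 low glucose libraries in 9 members, a separation seen in 20.9% of all genes. All 10 members had a mean of at least 5 CPM over the 8 libraries, and among the 11297 genes at that level 33.6% rose, 33.3% fell and 66.9% passed in either direction, while 3.28% rose by at least 1 and 32.5% showed the separation. The median log2 change was 1.32 over the 10 members and -0.0090 over all genes. Since the members were chosen with earlier results of these data known, these counts and shares describe the set and do not test it. In a bulk library, more transcript in each cell and more cells that carry the transcript cannot be told apart. Values are CPM, read counts relative to library size, to which the authors applied TMM scaling factors (trimmed mean of M values). Log2 changes are differences of log2(CPM + 1), high minus low glucose, which understate the change of low genes.

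**Figure D1:**
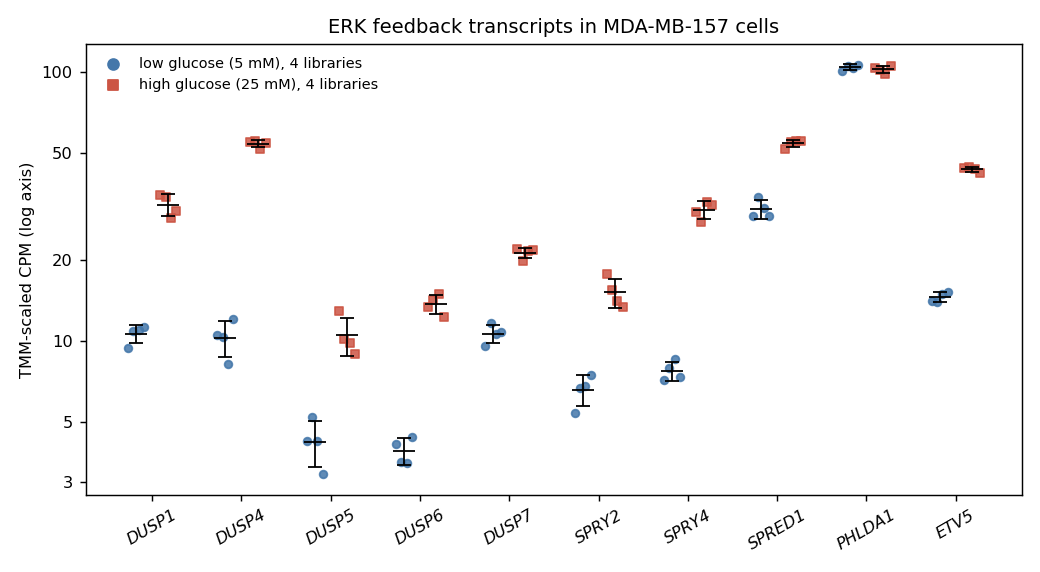
TMM-scaled CPM (log axis) of the 10 members in each of the 8 libraries, with low glucose as circles, high glucose as squares, and bars for the mean and SD of 4 libraries. The groups are apart in 9 members, while the PHLDA1 values of both groups lie between 98.9 and 107 CPM.

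The inducible phosphatases of the nucleus came first. DUSP1 (ENSG00000120129.6, chromosome 5, 172768096 to 172771195), a phosphatase that acts on p38, JNK and ERK and is induced by stress as well as by growth factors, was at 9.419, 10.93, 11.04 and 11.29 CPM in low glucose replicates 1 to 4. At high glucose it was at 34.94, 34.52, 28.79 and 30.57 CPM. The lowest high glucose library stood 17.5 CPM above the highest low glucose library. The means were 10.7 ± 0.848 and 32.2 ± 3.01 CPM (SD, n = 4), a ratio of 3.02 and a log2 change of 1.51 ± 0.08 (SE, adjusted p = 1.07e-05).

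DUSP4 (ENSG00000120875.9, chromosome 8, 29333064 to 29350684), which acts on ERK and JNK in the nucleus, had the largest change of the 10. It was at 10.59, 10.35, 8.239 and 12.09 CPM at low glucose and at 55.06, 55.4, 52.04 and 54.84 CPM at high glucose. The group means of 10.3 ± 1.59 and 54.3 ± 1.54 CPM (SD, n = 4) gave a ratio of 5.27, and the log2 change of 2.30 ± 0.10 (SE, adjusted p = 4.5e-06) ranked 9 among all 21059 genes. DUSP5 (ENSG00000138166.6, chromosome 10, 110497907 to 110511533), a nuclear phosphatase specific for ERK, was one of the lowest members. Its values were 4.251, 5.218, 4.247 and 3.205 CPM at low glucose and 12.99, 10.2, 9.897 and 8.976 CPM at high glucose. Replicate 1 was the highest of the high glucose group, and the lowest of that group was still 3.76 CPM above the highest low glucose value. The log2 change was 1.14 ± 0.15 (SE, adjusted p = 6.73e-04), with means of 4.23 ± 0.822 and 10.5 ± 1.73 CPM (SD, n = 4).

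DUSP6 and DUSP7 are the cytoplasmic phosphatases that are selective for ERK. DUSP6 (ENSG00000139318.8, chromosome 12, 89347235 to 89352501), whose promoter with the ETS core and the Capicua octamer is printed above, was at 4.168, 3.561, 3.539 and 4.424 CPM at low glucose. Its high glucose values were 13.41, 14.27, 15 and 12.34 CPM, so the groups were far apart with a small spread in each. The means of 3.92 ± 0.443 and 13.8 ± 1.15 CPM (SD, n = 4) had a ratio of 3.51, against a log2 change of 1.58 ± 0.09 on the CPM + 1 scale (SE, adjusted p = 1.24e-05). Of the 31-base words of the DUSP6 transcript, 23.2% are shared with a transcript on the other strand (ENSG00000274021.1), and whether reads were counted by strand is not given in the sources used here. That partner was listed at no more than 0.113 CPM in any library.

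DUSP7 (ENSG00000164086.10, chromosome 3, 52048919 to 52056571) moved less. It was at 9.585, 11.68, 10.62 and 10.85 CPM at low glucose and at 21.95, 19.85, 21.61 and 21.77 CPM at high glucose. Its log2 change was 0.93 ± 0.06 (SE, adjusted p = 2.72e-05), and its means were 10.7 ± 0.862 and 21.3 ± 0.9754 CPM (SD, n = 4). Replicate 2 was the lowest of the high glucose group for DUSP7 and replicate 3 for DUSP4, and both stood well above the low glucose libraries.

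The Sprouty and SPRED genes act on the cascade above ERK. SPRY2 (ENSG00000136158.12, chromosome 13, 80335976 to 80341126), an inhibitor of receptor-driven RAS activation, was at 5.418, 6.708, 6.795 and 7.502 CPM at low glucose and 17.79, 15.46, 14.1 and 13.42 CPM at high glucose. The means were 6.61 ± 0.868 and 15.2 ± 1.93 CPM (SD, n = 4), a log2 change of 1.09 ± 0.12 (SE, adjusted p = 2.35e-04). SPRY4 (ENSG00000187678.9, chromosome 5, 142310430 to 142325021), a related inhibitor, had the second largest change of the 10. Its values were 7.168, 7.951, 8.579 and 7.357 CPM at low glucose and 30.35, 27.74, 33.07 and 32.08 CPM at high glucose. The lowest high glucose library exceeded the highest low glucose library by 19.2 CPM. The log2 change was 1.86 ± 0.07 (SE, adjusted p = 3.25e-06), with means of 7.76 ± 0.638 and 30.8 ± 2.34 CPM (SD, n = 4) and a ratio of 3.97.

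SPRED1 (ENSG00000166068.13, chromosome 15, 38252836 to 38357249), which brings the RAS inhibitor neurofibromin to the membrane, started from a higher level. It was at 29.17, 34.37, 31.26 and 29.28 CPM at low glucose and 52.02, 55.0, 55.76 and 55.46 CPM at high glucose, again with no overlap. The log2 change of 0.80 ± 0.06 (SE, adjusted p = 3.16e-05) was the smallest among the 9 members that rose, with means of 31.02 ± 2.43 and 54.6 ± 1.72 CPM (SD, n = 4).

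ETV5 (ENSG00000244405.8, chromosome 3, 186046314 to 186109089), the transcription factor of the set, had the smallest spread relative to its change. It was at 14.09, 14, 15.03 and 15.22 CPM at low glucose and 44.05, 44.4, 43.55 and 42.3 CPM at high glucose. The means were 14.6 ± 0.634 and 43.6 ± 0.916 CPM (SD, n = 4), a ratio of 2.99 and a log2 change of 1.52 ± 0.03 (SE, adjusted p = 6.21e-07), the smallest adjusted p of the 10. It overlaps DGKG on the same strand, which was listed at no more than 0.711 CPM.

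PHLDA1 (ENSG00000139289.13, chromosome 12, 76025447 to 76031776), the most abundant member in CPM, differed by less than the spread between replicates. Its values were 101.3, 105.9, 104.2 and 106.8 CPM at low glucose and 104.2, 102.4, 98.89 and 105.6 CPM at high glucose, so the groups overlapped. The log2 change was -0.02 (95% interval -0.09 to 0.04, adjusted p = 0.488), with means of 105 ± 2.43 and 103 ± 2.89 CPM (SD, n = 4). With quantile normalization PHLDA1 passed as lower, with a log2 change of -0.14 (adjusted p = 0.00409), and with median-of-ratios scaling its sign turned, at 0.02 (adjusted p = 0.656). Its interval did not reach that of SPRED1, the nearest of the other 9, which ran from 0.67 to 0.93. Part of the PHLDA1 transcript, 11.5% of its 31-base words, is shared with other transcripts, of which PHLDA1-AS1 on the other strand has the most. PHLDA1-AS1 was not listed under that name among the deposited values, so its level is not known here.

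Among members, levels can be set side by side only per length, as CPM per kilobase of the canonical transcript. At low glucose the order was PHLDA1, DUSP1, SPRED1, ETV5, DUSP7, SPRY2, DUSP4, DUSP5, SPRY4 and DUSP6, from 17.7 ± 0.411 down to 1.08 ± 0.122 CPM per kilobase (SD, n = 4). The ranges over libraries overlapped between DUSP1 and SPRED1, ETV5 and DUSP7, DUSP7 and SPRY2, DUSP4 and DUSP5, and DUSP5 and SPRY4. Overlap of ranges does not show equal levels, and the differences between these neighbors were not tested. At high glucose DUSP1 reached 16.0 ± 1.5 CPM per kilobase and its range overlapped that of PHLDA1 at 17.4 ± 0.488. ETV5 followed at 10.7 ± 0.224 and DUSP4 at 9.78 ± 0.278 CPM per kilobase, and the ranges of DUSP1, ETV5, DUSP4 and SPRED1 did not overlap from one to the next. SPRED1, SPRY2, DUSP7 and SPRY4 overlapped in turn, between 7.50 and 6.28 CPM per kilobase, and DUSP5 and DUSP6 were last at 4.25 and 3.79.

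**Figure D2:**
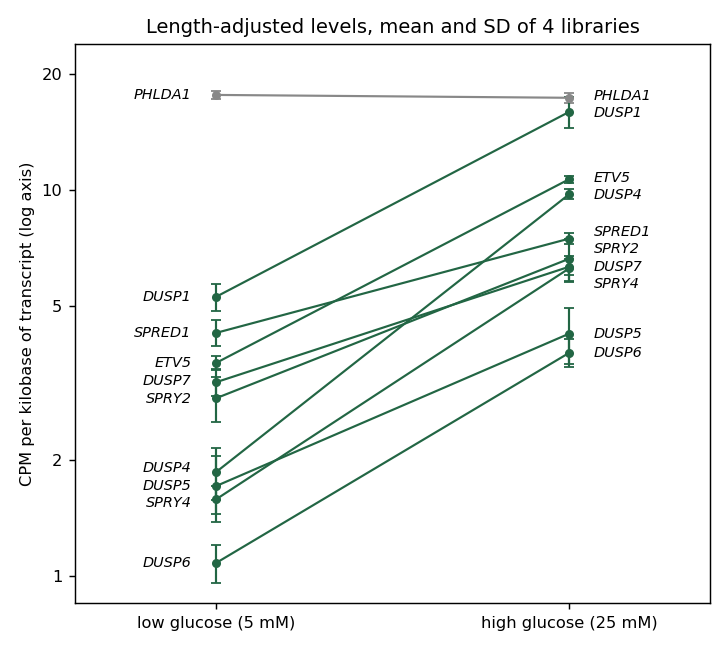
CPM per kilobase of transcript (log axis) at low and high glucose, points and bars giving the mean and SD of 4 libraries. DUSP4 moves from rank 7 to rank 4 and DUSP6 stays at rank 10, while PHLDA1 (gray) is at 17.7 and 17.4 CPM per kilobase.

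The 5 DUSP members together held 13.1 ± 0.700 CPM per kilobase at low and 40.2 ± 2.14 at high glucose (SD, n = 4). DUSP1 made up 40.4% ± 2.15 of that sum at low and 39.8% ± 1.86 at high glucose, an equal share within the spread. The share of DUSP4 was 14.2% ± 2.06 at low and 24.4% ± 0.988 at high glucose, and that of DUSP7 was 24.2% ± 0.837 and 15.8% ± 1.2. SPRY2 and SPRY4 together were at 4.47 ± 0.438 and 12.9 ± 0.732 CPM per kilobase. These sums and shares were not tested.

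High glucose replicate 1 stood apart from the others of its group, and transcript length moved with it. Over 11223 genes of at least 5 CPM, its difference from the mean of the other 3 had a Spearman correlation of -0.65 with transcript length, against 0.25 to 0.47 for high glucose replicates 2 to 4 and -0.13 to 0.06 at low glucose. For high glucose replicates 2 to 4 the mean of the other 3 includes replicate 1, so their values are not independent of it. These correlations are across genes, which are not independent replicates. Among the members, replicate 1 was the highest of the high glucose group for the 4 shortest transcripts, DUSP1, SPRY2, DUSP5 and DUSP7, by 0.16, 0.30, 0.39 and 0.06 on the log2 scale over the mean of the other 3. It was the lowest for the longest, SPRED1, by -0.09. Without that library the log2 changes were 1.47 for DUSP1, 1.02 for SPRY2 and 1.04 for DUSP5, and after removal of the length trend they were 1.58, 1.15 and 1.19. All 9 members that rose still passed in both fits.

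**Figure D3:**
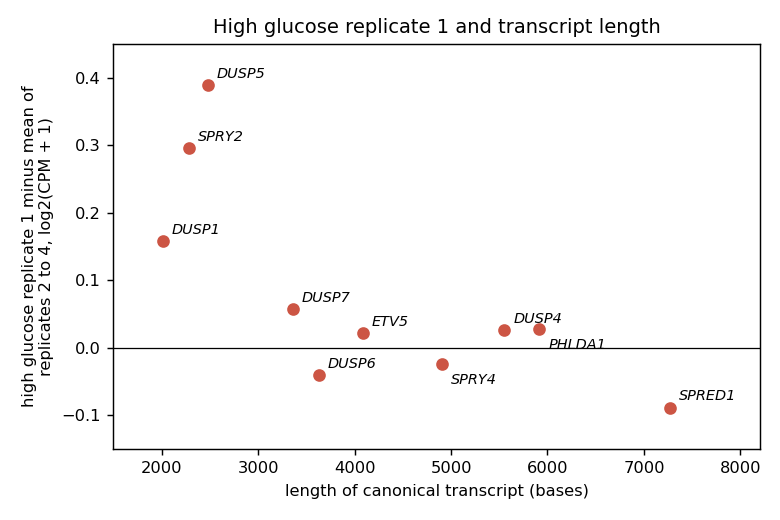
Difference in log2(CPM + 1) between high glucose replicate 1 and the mean of high glucose replicates 2 to 4 (vertical axis) against the length of the canonical transcript in bases (horizontal axis), 1 point for each of the 10 members. DUSP5 is the highest at 0.39 with 2477 bases and SPRED1 the lowest at -0.09 with 7270 bases.

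Over the 8 libraries, Pearson correlations of log2(CPM + 1) among the 9 members that rose ranged from 0.92 to 0.99 over 36 pairs. The libraries fall into 2 groups by glucose, so these values mostly restate the group difference. Deviations from the group means had correlations from -0.68 to 0.89 with a median of 0.02 over the same pairs. Among 11287 other genes of at least 5 CPM, those with the highest Pearson correlation to DUSP6 over the 8 libraries were ZDHHC20 (0.9986), LRIF1 (0.9981) and FOS (0.9977). Those most like SPRY4 were TSC22D2 (0.9988), DNAJB6 (0.9987) and PELI1 (0.9986). A correlation above 0.95 was reached by 1577 genes for DUSP6 and 1779 for SPRY4. Of the genes named, FOS, an early-response transcription factor, went from 3.39 to 13.1 CPM.

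The other genes of the same families were counted next. Of the 5 other MAP kinase phosphatases, 2 rose, 0 fell and 3 did not pass, with a median log2 change of 0.14. DUSP8, which acts on JNK and p38, rose from 6.85 ± 0.307 to 13 ± 0.761 CPM (SD, n = 4), with a log2 change of 0.83 (adjusted p = 2.93e-05). DUSP2, a nuclear ERK phosphatase best known from immune cells, was at 0 to 0.34 CPM at low and 0.412 to 0.776 CPM at high glucose, with a log2 change of 0.38 (adjusted p = 0.0235) that rests on few reads. DUSP2 was at or above the value of 3 reads in 5 of 8 libraries, and it no longer passed with a pseudocount of 0.1 (adjusted p = 0.0553), without low glucose replicate 2 (0.0568) or without high glucose replicate 2 (0.0556). DUSP10 and DUSP16, both directed at JNK and p38, had log2 changes of 0.14 (adjusted p = 0.0732) and 0.12 (adjusted p = 0.31). DUSP10 passed with median-of-ratios scaling, equal totals or the length trend removed (adjusted p from 0.0132 to 0.0324). DUSP9, a cytoplasmic ERK phosphatase, was at 1.31 ± 0.167 and 1.21 ± 0.239 CPM, and its log2 change was -0.07 (adjusted p = 0.608).

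Of the 4 other Sprouty and SPRED genes, 3 rose, 0 fell and 1 did not pass. SPRED2 rose from 74.1 ± 2.36 to 106 ± 6.84 CPM (SD, n = 4), with a log2 change of 0.51 (adjusted p = 1.47e-04). SPRED3 rose from 10.0 ± 0.956 to 14.9 ± 1.95 CPM, with a log2 change of 0.53 (adjusted p = 0.00525). SPRY1 went from 10.9 ± 0.653 to 12.8 ± 0.942 CPM, with a log2 change of 0.21 (adjusted p = 0.0356). SPRY1 lost its call without replicate 1, 2 or 4 of either group, 6 of the 8 fits that left out a library (adjusted p from 0.0678 to 0.0892), and with the replicate block (0.118). SPRY3 was at 2.79 ± 0.236 and 2.64 ± 0.555 CPM (adjusted p = 0.701). The SPRED proteins and Sprouty proteins share a cysteine-rich C-terminal domain.

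**Figure D4:**
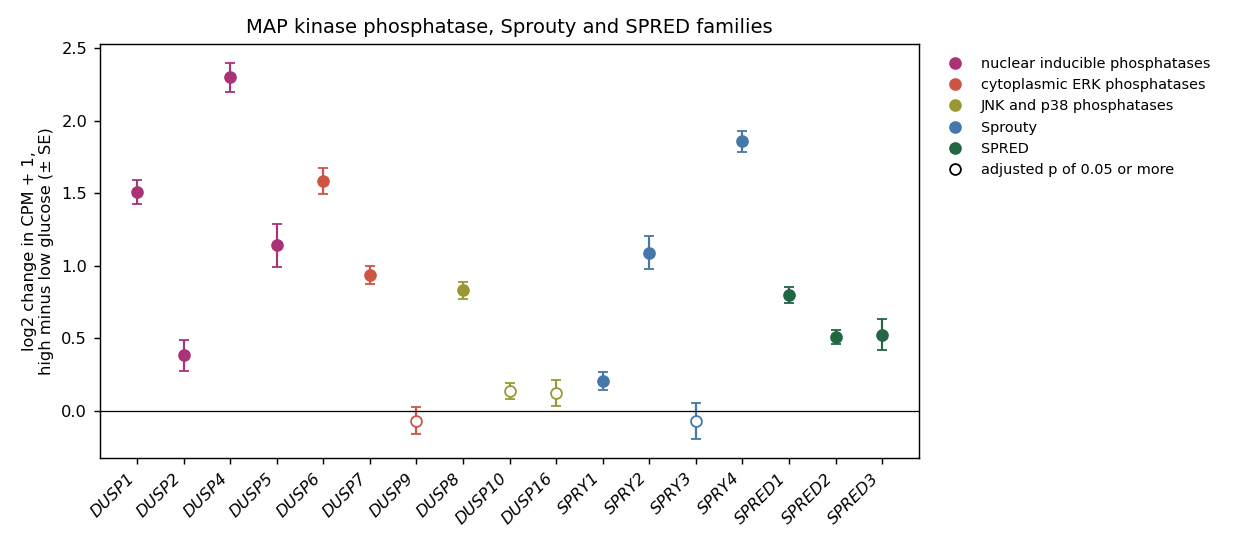
Log2 change in CPM + 1, high minus low glucose, with its SE, for the 10 MAP kinase phosphatases and the 7 Sprouty and SPRED genes, colored by subfamily. Open points mark an adjusted p of 0.05 or more, and the largest changes, 2.30 and 1.86, are those of DUSP4 and SPRY4.

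Other genes read as ERK output moved both ways. Of 26 such genes, 14 rose, 6 fell and 6 did not pass, with a median log2 change of 0.41. HBEGF, an EGF receptor ligand that ERK induces, rose from 6.11 to 29.1 CPM, with a log2 change of 2.09 (adjusted p = 2.76e-06). EPHA2, an ephrin receptor, rose from 59.8 to 166 CPM, with a ratio of 2.77 (adjusted p = 3.96e-06). PROS1, the anticoagulant protein S, fell from 61.9 to 26.2 CPM, with a log2 change of -1.21 (adjusted p = 2e-06). ETV1 and ETV4, the closest relatives of ETV5, were chosen after their values were seen, and rose with log2 changes of 0.86 (adjusted p = 0.00158) and 1.97 (adjusted p = 4.58e-05). EGR1, also chosen after its values were seen, was at 8.43 and 7.25 CPM, with a log2 change of -0.20 (adjusted p = 0.196).

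Of 12 other inhibitors of receptor and RAS signaling, 5 rose, 1 fell and 6 did not pass, with a median log2 change of -0.03. ERRFI1, which binds and blocks the EGF receptor, rose from 11.9 to 28.9 CPM, with a log2 change of 1.21 (adjusted p = 8.1e-07). PEA15, which holds ERK in the cytoplasm, rose from 222 to 393 CPM, with a log2 change of 0.82 (adjusted p = 8.67e-06). RASA3, a GTPase-activating protein for RAS, fell from 124 to 91.3 CPM, with a log2 change of -0.44 (adjusted p = 4.91e-05).

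The cascade itself was the next list. Of 20 genes from adaptors to ERK, 10 rose, 1 fell and 9 did not pass, with log2 changes from -0.51 to 0.84 and a median of 0.26. MAPK3, which encodes ERK1 and was chosen after its values were seen, fell from 26.0 to 18 CPM, with a log2 change of -0.51 (adjusted p = 0.00107). NRAS, a RAS GTPase, and SHOC2, a scaffold for RAF activation, rose with log2 changes of 0.55 (adjusted p = 2.04e-05) and 0.39 (adjusted p = 6.77e-05).

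Of 18 kinases and transcription factors that ERK regulates, 11 rose, 1 fell and 6 did not pass, with a median log2 change of 0.27. Without low glucose replicate 1, 7 of them passed in either direction. ELK1, an ETS factor that ERK phosphorylates, rose from 80.5 to 156 CPM, with a log2 change of 0.94 (adjusted p = 8.55e-07). RPS6KA1, the ERK-activated kinase RSK1, rose from 26.1 to 61.2 CPM, with a ratio of 2.35 (adjusted p = 9.14e-06), and SRF, the partner of ELK1 on the CArG box, had a log2 change of 0.88 (adjusted p = 1.88e-05). The repressor CIC, the Capicua protein whose octamer stands in the DUSP6 promoter, was at 36.6 and 35.7 CPM, with a log2 change of -0.04 (adjusted p = 0.805), and was chosen after its values were seen.

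Upstream, among 18 growth factors and receptors, 7 rose, 7 fell and 4 did not pass, with a median log2 change of -0.06. Of the 18, 15 were at or above the value of 3 reads in all libraries. Without low glucose replicate 1, 11 of the 18 passed in either direction. The fibroblast growth factor FGF2 rose from 40.4 to 254 CPM, with a log2 change of 2.62 (adjusted p = 3.42e-07). The receptors PDGFRB and ERBB2 fell, with log2 changes of -0.93 (adjusted p = 2.38e-06) and -0.69 (adjusted p = 3e-05). Of the 6 JNK and p38 kinases, from the families that DUSP1 acts on besides ERK, 3 rose, 0 fell and 3 did not pass, and with quantile normalization 1 passed. MAPK9 had a log2 change of 0.54 (adjusted p = 5.17e-05), MAPK14 of 0.26 (adjusted p = 0.00748) and MAPK8 of 0.14 (adjusted p = 0.0363). MAPK8 lost its call in 6 of the 8 fits that left out a library, those without replicate 1 or 2 of either group, low glucose replicate 3 or high glucose replicate 4 (adjusted p from 0.0564 to 0.0906). It also lost it with quantile normalization (0.0995), with the replicate block (0.095) and with the length trend removed (0.0573). Beside the 66.9% of genes of at least 5 CPM that passed in either direction, the share was lower in the cascade (11 of 20), the other inhibitors (6 of 12), the JNK and p38 kinases (3 of 6) and the other MAP kinase phosphatases (2 of 5), so these counts are not a result about those lists, some of whose genes were under 5 CPM. The kinases and transcription factors regulated by ERK (12 of 18) were near that share, as were the other Sprouty and SPRED genes (3 of 4), the other ERK output genes (20 of 26) and the growth factors and receptors (14 of 18).

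**Figure D5:**
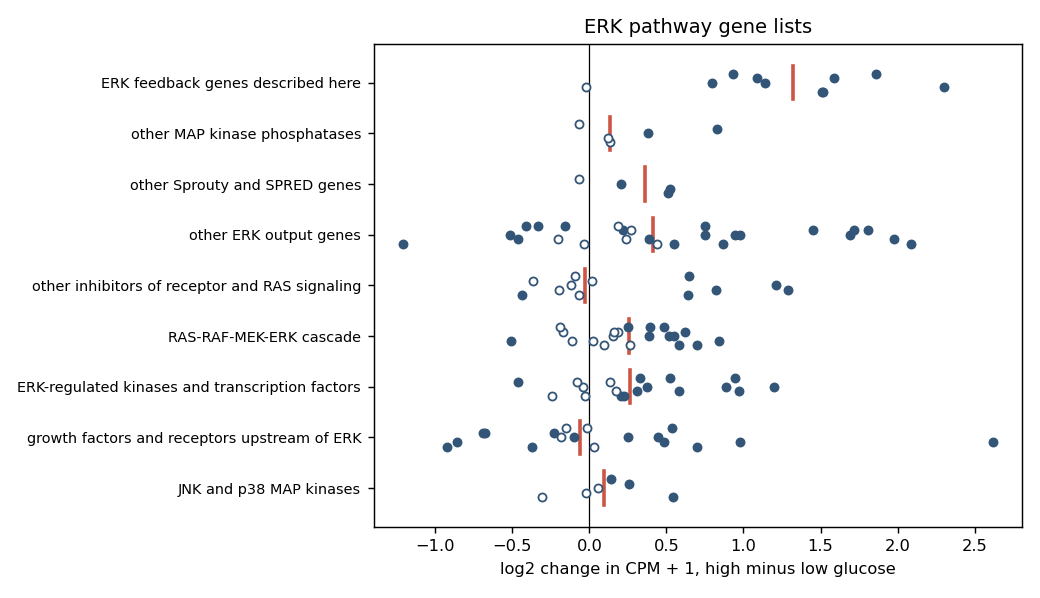
Log2 change in CPM + 1, high minus low glucose (horizontal axis), of each gene in the 10 feedback genes and 8 further lists, 1 row per list. Filled points passed an adjusted p of 0.05, open points did not, and the red bars are list medians, 1.32 for the feedback genes and -0.06 to 0.41 for the others.

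The label of the line was checked on its markers. ESR1, the estrogen receptor, was under the value of 3 reads in all 8 libraries, with means of 0.121 and 0.0598 CPM. PGR, the progesterone receptor, was at 4.76 and 5.35 CPM (adjusted p = 0.255). ERBB2, the receptor that fell in the list of growth factors and receptors, is a marker too, with means of 63.6 and 39.2 CPM. Unlike ESR1, both PGR and ERBB2 were over the value of 3 reads in all 8 libraries, so neither transcript was absent. The label names ER only, and whether PGR or ERBB2 is low for a breast cancer line was not tested, as no other line was compared. VIM, a mesenchymal filament, was at 4091 and 2967 CPM, with a log2 change of -0.47 (adjusted p = 0.00224). The libraries held an estimated 9721648 to 12482546 reads, so that 3 reads were worth 0.212 to 0.267 CPM. All 10 members were above that value in every library.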

How the data were processed

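RNA of MDA-MB-157 cells, 4 replicates per glucose level, was sequenced on an Illumina HiSeq. The authors deposited 1 table of CPM values scaled with TMM factors from edgeR. Per the labels the build is hg38, while the methods describe hg19 and TopHat, first for tumors. The counting tool and its use of the strand are not given in the sources used here. Of 21077 lines, 18 Y copies of pseudoautosomal genes, identical to the X copies, were left out. Of values under 200 reads, 72.1% to 73.5% lay within 0.001 reads of a whole number (in proportion more above 10 reads) and 75.1% to 76.5% within 0.05 reads, so no count model was used, and depth was estimated as the column sum over the value of 1 read. Depths and the 3-read floor cover counting error only. The TMM-scaled CPM are relative to the rest of each library.

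Values were analysed as log2(CPM + 1) with limma 3.58.1 in R 4.3.3 (lmFit, eBayes with trend, 2-sided, no covariate), adjusted over 21059 genes, threshold 0.05. Members and lists were chosen with earlier results of these data known. Named genes are the members, at most 3 per list by smallest adjusted p, every other phosphatase, Sprouty and SPRED gene, and the 3 genes most like DUSP6 and SPRY4. Others are said to have been chosen after their values were seen. A gene of the cascade list that this rule names is not reported here. Gene positions and promoters are from RefSeq (GRCh38.p14), with positions for all 10 members and promoters for 7 of 10. Transcript lengths, overlaps and shared words are from GENCODE 44 on GRCh37. Alternatives were pseudocounts of 0.1 and 0.5, a mean of at least 1 or 5 CPM, 3 other scalings, a replicate block, removal of the length trend and leaving out each library.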

Additional observations from a re-analysis of the deposited data

Results flagged for a closer look

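Single libraries that lay far from the rest of their group were sought with Dixon's ratio of gap to range among the members, the other phosphatases, Sprouty and SPRED genes and at most 3 genes of each further list. In 6 of 78 groups of 4 libraries the ratio was above the critical value at the 95% level, where chance gives about 3.9. The flagged members were DUSP4, with high glucose replicate 3 the lowest at 52.0 CPM against 54.8 to 55.4 CPM in the others, and DUSP7, with high glucose replicate 2 the lowest at 19.8 CPM against 21.6 to 22.0 CPM. Among the other genes, NRAS was lowest in high glucose replicate 2 at 104 CPM against 113 to 115 CPM. RASA3 was lowest in low glucose replicate 1 at 122 CPM against 124 to 125 CPM. SHOC2 was highest in high glucose replicate 4 at 65.9 CPM against 60.7 to 61.4 CPM. VIM was highest in high glucose replicate 1 at 3282 CPM against 2856 to 2869 CPM. The causes of these gaps were not tested.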

How the results depend on the processing

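The 9 members that rose kept their direction and passed the threshold in all 17 alternatives, with log2 changes between 0.755 (SPRED1, quantile normalization) and 2.40 (DUSP4, pseudocount of 0.1). Under quantile normalization 1 member, PHLDA1, was called lower, and with median-of-ratios scaling its log2 change was 0.017. The count of other MAP kinase phosphatases called was 1 with a pseudocount of 0.1 and with a mean of at least 1 or 5 CPM, which leaves DUSP2 untested, and 1 to 2 with a library left out. JNK and p38 kinases called numbered 1 with quantile normalization, and ERK-regulated kinases and transcription factors 7 to 11 with a library left out. The causes were not tested. Over all genes 8899 to 10156 passed with a library left out. Whether the replicate numbers pair the libraries is not stated in the labels. Correlations of deviations ran from -0.04 to 0.07 between equal numbers, which cannot decide it with 4 libraries per group. With the replicate block, as a pairing by number, 8921 genes and the same 9 members passed.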
